A study of Mus musculus with 20 samples.

Results

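Transcripts of 45 genes of the contractile apparatus of heart muscle were followed in mouse hearts with and without OGFOD1, after isoproterenol or vehicle. The genes were picked by name for what their products are known to do in the sarcomere, at a time when earlier results of these data were known. All 45 were found by symbol among the 55335 genes counted. They comprised 7 genes of the thick filament and the enzymes that phosphorylate it, 12 of the thin filament, 4 of the M-band, 15 of the Z-disc, and 7 for assembly and signalling. The groups were KO mice on isoproterenol, KO mice on vehicle, WT mice on isoproterenol and WT mice on vehicle, with 5 libraries each. All were C57BL/6N mice aged 3 to 5 months. KO mice lacked OGFOD1, an oxygenase that hydroxylates a ribosomal protein, and neither the exons deleted nor the cells in which they were deleted are given in the sources used here. Isoproterenol, an agonist of beta-adrenergic receptors that makes the heart beat faster and enlarge, was infused by osmotic minipump for 2 weeks in phosphate-buffered saline with sodium ascorbate, and vehicle mice received that solution alone. Whole frozen hearts had been powdered before RNA was taken, so that atria, ventricles and every cell type of the heart contributed. Whether the 5 libraries of a group came from 5 different mice is not stated, and p-values therefore measure the spread between libraries.

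The sarcomere is the unit of contraction in striated muscle, in which thick filaments of myosin pull on thin filaments of actin when calcium binds to troponin. Thin filaments are anchored in the Z-disc at either end of the sarcomere, thick filaments are cross-linked in the M-band at its centre, and titin runs between these anchors as a spring. In the heart the adult forms of these proteins are among the most abundant, and sequence changes in many of their genes are known causes of human cardiomyopathy.

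Total counts ran from 14609808 to 43671055 per library, and 5.92 to 17.1 M of them lay outside the mitochondrial genome. Ogfod1 measured 2.39 to 4.13 CPM (counts scaled to library size) in KO isoproterenol libraries and 18.7 to 21.8 CPM in WT isoproterenol libraries. It measured 2.49 to 4.08 CPM in KO vehicle libraries and 16.9 to 20.9 CPM in WT vehicle libraries, so that every library matched its genotype label. KO isoproterenol replicate 5 and WT vehicle replicate 2 held the most values flagged as far from the rest of their group (6 and 3), as given further on. They were taken as a pair of outlying libraries after the data had been seen, from values of these same sarcomere genes. Calls gained without the pair, such as those of Nexn, Fhod3 and Ldb3, are therefore no separate support. The counts that lead each comparison are given with and without this pair. In KO isoproterenol replicate 5, 35 of the 44 sarcomere genes tested were the lowest of the group, and the median deviation of the 44 genes from the group mean was −0.25 on the log2 scale. The summed level of 10 fibroblast markers in that library was 3338 CPM, against 1519 to 1847 CPM in the other 4 libraries of the group. In WT vehicle replicate 2 the median deviation was −0.01, with 19 of the 44 genes above the group mean and 25 below it. WT isoproterenol replicate 1, which is not in the pair, had 40 of the 44 below its group mean and a median deviation of −0.08. Of 13 markers of skeletal muscle, 11 reached at most 0.998 CPM in any of the 20 libraries, and the other two, Ckm and Myot, are also made by the heart.

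Together the 45 genes took a large share of the counts outside the mitochondrial genome. That share was 12.4% to 14.8% in KO isoproterenol libraries and 15.3% to 16.1% in KO vehicle libraries, which did not overlap. It was 14.6% to 15.4% in WT isoproterenol libraries and 14.9% to 16.0% in WT vehicle libraries, which did. Ttn, the gene of the giant spring protein titin, alone made up 58.3% to 62.4% of the sarcomere counts of a library, and its exons are the longest of the 45 genes. Per kilobase of annotated exon the order was different, as the plot of levels shows. The cardiac alpha actin gene Actc1 led with 2199 CPM per kb in WT vehicle libraries. It was followed by the ventricular light chain gene Myl2 (1436 CPM per kb), the inhibitory troponin gene Tnni3 (1155 CPM per kb), the calcium-binding troponin gene Tnnc1 (629.9 CPM per kb) and Tpm1 (598 CPM per kb). Tnnc1 and Tpm1 lay within a standard deviation of each other, whereas the 3 genes above them were set apart by more than that. The length used joins all annotated exons of a gene, at 6485 bases for Tpm1 and 1041 for Tnnc1. It is not the length of the transcript made in the heart, so levels per kilobase compare genes only roughly. At the other end stood forms known from skeletal or fetal muscle. Tnni1, the slow skeletal troponin I of the fetal heart, was counted 0 to 11 times per library and was the 1 gene of the 45 that did not pass the filter on low counts. Myom3 and Ankrd23, the lowest genes that did pass, were counted at least 15 times in each library. Mybpc2, the fast skeletal form of myosin-binding protein C, had a mean of 3.03 CPM per kb in WT vehicle libraries, against 322 CPM per kb for its cardiac relative Mybpc3.

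**Figure D1:**
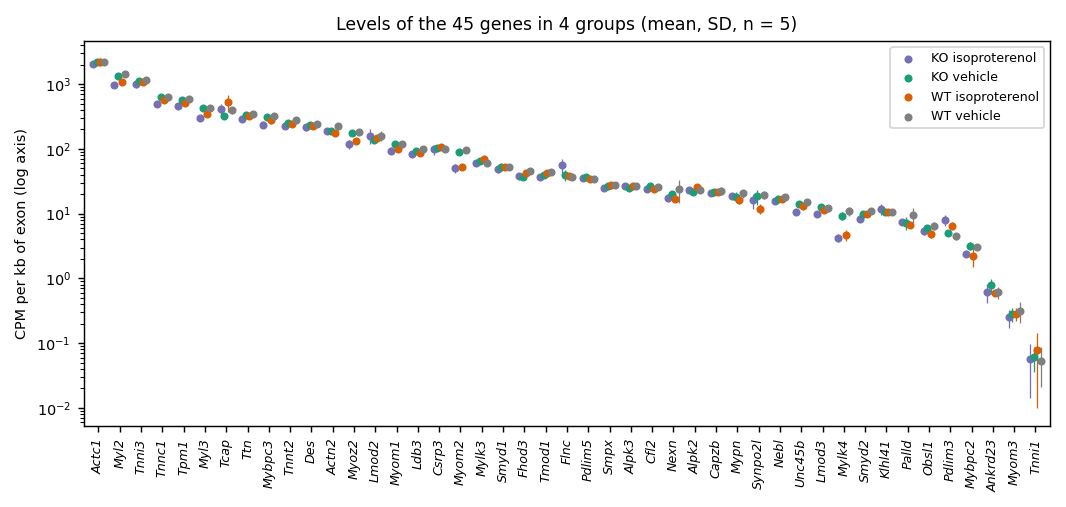
Mean CPM per kb of annotated exon (log axis) of the 45 genes in order of their WT vehicle level, with bars for the standard deviation of 5 libraries and 1 colour per group. Levels span from 2199 CPM per kb for Actc1 to under 0.1 CPM per kb for Tnni1, and the groups part most at Mylk4 and Myom2.

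The first question was what 2 weeks of isoproterenol did to sarcomere transcripts. More of these genes were lowered than raised, in both genotypes, and most changes were small. In KO, 13 genes were lower with isoproterenol and 2 were higher, of 44 tested (adjusted p below 0.05 by edgeR's quasi-likelihood test with Benjamini-Hochberg adjustment). Of all 14878 genes tested, 4.29% were lower and 4.75% higher in this comparison. In WT, 12 genes were lower and 2 higher, where 4.12% of all genes were lower and 4.64% higher. The median log2 fold change was −0.14 over the 44 genes and 0.01 over all genes in KO, and −0.11 and 0.00 in WT. Levels of the treated and vehicle libraries did not overlap for 13 lower genes and 1 higher gene in KO (4.31% and 3.75% of all genes), and for 11 lower genes and 1 higher gene in WT (3.75% and 4.29% of all genes). Without KO isoproterenol replicate 5 and WT vehicle replicate 2, 13 genes were lower and 3 higher in KO, where 4.01% of all genes were lower and 4.50% higher. In WT 13 were then lower and 2 higher, where 4.41% of all genes were lower and 5.12% higher. The WT count of lower genes fell to 7 when WT isoproterenol replicate 4 or WT vehicle replicate 4 was left out.

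In both genotypes 7 genes fell, namely Myl2, Myl3, Mylk4, Tpm1, Myom1, Myom2 and Myoz2, and 1 gene, Pdlim3, rose. In KO and not in WT, Mybpc3, Ttn, Tnnc1, Lmod3, Unc45b and Smyd2 passed as lower and Flnc as higher. In WT and not in KO, Obsl1, Actn2, Mypn, Palld and Synpo2l passed as lower and Mylk3 as higher. The remaining 23 genes passed in neither genotype. Passing in 1 genotype and not in the other does not show that the genotypes differ, and none of the 44 differences between the responses passed the test.

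**Figure D2:**
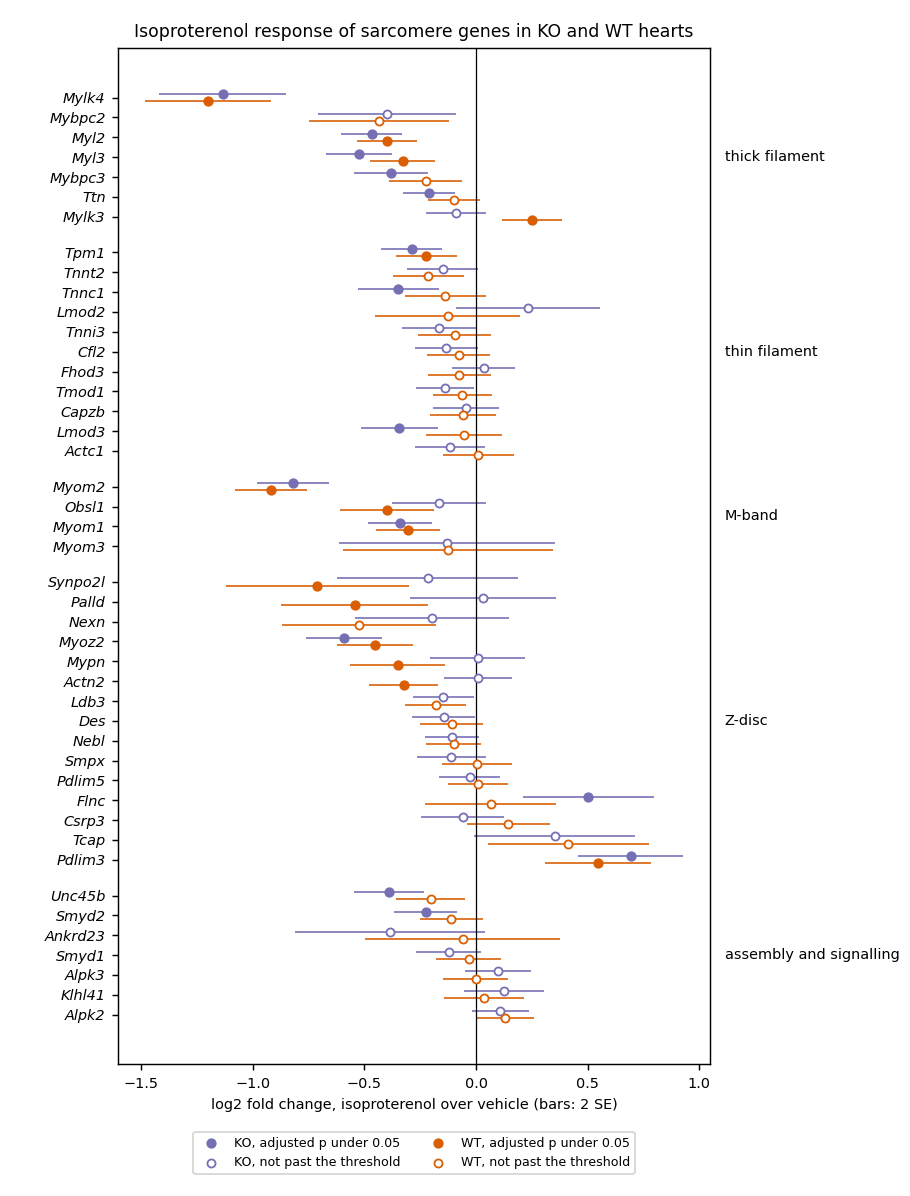
Log2 fold change of isoproterenol over vehicle for the 44 genes tested, grouped by their place in the sarcomere, in KO (purple) and WT (orange), with bars of 2 SE and filled points for adjusted p under 0.05. Mylk4 and Myom2 lie furthest to the left in both genotypes and Pdlim3 furthest to the right.

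Markers of other cells moved as well, and because whole hearts were used, fewer muscle cells and less of a transcript per muscle cell cannot be told apart. The 10 fibroblast markers summed to 1519 to 3338 CPM in KO isoproterenol libraries and 1254 to 1450.5 CPM in KO vehicle libraries, and 4 of the 10 passed as higher. In WT they summed to 1435 to 1658 CPM with isoproterenol and 1144 to 1266 CPM with vehicle, and again 4 of the 10 passed as higher. Markers of macrophages passed as higher in 4 of 11 in KO and 5 of 11 in WT. Over all genes tested, 4.75% were higher and 4.29% lower in KO, and 4.64% higher and 4.12% lower in WT. For 16 cardiomyocyte genes outside the sarcomere the sums were 15212 to 19198 CPM in KO isoproterenol libraries and 18605 to 20654 CPM in KO vehicle libraries, with 6 of 16 lower. The same sums were 18575 to 20516 CPM in WT isoproterenol libraries and 19818 to 21445 CPM in WT vehicle libraries, with 2 of 16 lower. None of the 16 passed as higher in either genotype. KO isoproterenol replicate 5 held both the 3338 CPM of the fibroblast markers and the 15212 CPM of the cardiomyocyte genes. The median log2 fold change of these 16 genes was −0.16 in KO and −0.07 in WT, beside −0.14 and −0.11 for the sarcomere genes. The part of cell composition in the small falls was not tested.

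Of the 7 thick filament genes, 5 were lower in KO, and 3 were lower and 1 higher in WT. Both ventricular light chain genes fell. Myl2 (ENSMUSG00000013936; GRCm38 chromosome 5, 122100951 to 122113472) encodes the regulatory light chain, whose phosphorylation tunes the force of each beat. It measured 1999, 1955, 2041, 1902 and 1572 CPM in KO isoproterenol libraries, against 2438, 2762, 2754, 2675 and 2456 CPM in KO vehicle libraries. The WT levels were 2004, 2054, 2138, 2131 and 2294 CPM in WT isoproterenol libraries, against 2655, 2608, 2907, 2786 and 3046 CPM in WT vehicle libraries. Every isoproterenol library lay below every vehicle library of its genotype. The log2 fold change was −0.47 (adjusted p = 3.63e-05, SE 0.0680) in KO and −0.40 (adjusted p = 2.45e-04, SE 0.0679) in WT. Myl3 (ENSMUSG00000059741; GRCm38 chromosome 9, 110741861 to 110769798), the essential light chain that stiffens the lever arm of the myosin head, moved the same way. Its levels were 597, 675, 664, 635 and 509 CPM in KO isoproterenol libraries, against 795, 909, 892, 983 and 852 CPM in KO vehicle libraries. In WT they were 658, 669, 699, 700.3 and 757 CPM in WT isoproterenol libraries, against 853, 791, 879, 863 and 989.5 CPM in WT vehicle libraries. Here too the groups were fully separate, with log2 fold changes of −0.53 (adjusted p = 2.19e-05, SE 0.0736) in KO and −0.33 (adjusted p = 0.00427, SE 0.0734) in WT. The annotated span of Myl3 overlaps Pth1r on the opposite strand.

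A pair of kinases of the myosin light chain kinase family moved unequally. Mylk4 (ENSMUSG00000044951; GRCm38 chromosome 13, 32700834 to 32783954), whose role in the heart is less well known, had the largest fall of all 44 genes in both genotypes. It measured 30.0, 37.1, 35.9, 26.1 and 34.3 CPM in KO isoproterenol libraries, against 76.7, 74.7, 84.0, 65.9 and 58.2 CPM in KO vehicle libraries. In WT the values were 25.1, 35.0, 40.2, 40.6 and 41.1 CPM in WT isoproterenol libraries, against 72.6, 94.1, 71.5, 101 and 79.6 CPM in WT vehicle libraries. In both genotypes the highest treated library stood well under the lowest vehicle library. The log2 fold change was −1.14 (adjusted p = 4.42e-05, SE 0.142) in KO and −1.20 (adjusted p = 2.14e-05, SE 0.141) in WT, which left 0.455 of the vehicle level in KO and 0.435 of it in WT. Mylk3 (ENSMUSG00000031698; GRCm38 chromosome 8, 85324303 to 85386345) encodes the cardiac kinase that phosphorylates the Myl2 product. In KO it measured 264, 258, 282, 266 and 229 CPM in KO isoproterenol libraries, against 272, 243, 281, 307 and 281 CPM in KO vehicle libraries. Those groups overlapped, and the log2 fold change was −0.09 (adjusted p = 0.463, SE 0.0677). In WT it measured 286, 279.7, 303, 341 and 311 CPM in WT isoproterenol libraries, against 252, 236, 275, 258 and 256 CPM in WT vehicle libraries. All treated WT libraries were above all vehicle WT libraries, and the gene rose there, with a log2 fold change of 0.25 (adjusted p = 0.0174, SE 0.0678). The Mylk3 call was lost without WT isoproterenol replicate 4 (log2 fold change 0.21, adjusted p = 0.0774). Per kilobase, Mylk4 stood at 0.0547 to 0.0835 of the Mylk3 level in KO isoproterenol libraries and 0.115 to 0.171 of it in KO vehicle libraries. In WT that ratio was 0.0488 to 0.0739 with isoproterenol and 0.145 to 0.222 with vehicle.

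The other thick filament genes shifted less. Mybpc3, cardiac myosin-binding protein C, which holds myosin heads near the filament and is a common site of hypertrophic cardiomyopathy variants in people, measured 1085, 1014, 1096, 964 and 783 CPM in KO isoproterenol libraries, against 1221, 1326, 1345, 1351 and 1189 CPM in KO vehicle libraries. The KO groups did not overlap, and the gene fell there, with a log2 fold change of −0.38 (adjusted p = 0.00319, SE 0.0825). In WT the groups overlapped, at 924, 1126, 1175, 1236 and 1272 CPM in WT isoproterenol libraries, against 1365, 1214, 1397, 1312 and 1417 CPM in WT vehicle libraries. The WT value was −0.23 (adjusted p = 0.0853, SE 0.0824), and without the pair of outlying libraries Mybpc3 passed in WT as well (−0.26, adjusted p = 0.0103). Ttn averaged 33916 ± 2924 CPM in KO isoproterenol libraries and 39214 ± 907 CPM in KO vehicle libraries (SD, n = 5 each) and fell, with a log2 fold change of −0.21 (adjusted p = 0.0213, SE 0.0587). In WT it averaged 37154 ± 973 CPM in WT isoproterenol libraries and 39801 ± 304 CPM in WT vehicle libraries and did not pass (−0.10 (adjusted p = 0.323)). The Ttn fall in KO lost its call without KO isoproterenol replicate 2 or without KO vehicle replicate 3. Mybpc2 had log2 fold changes of −0.40 (adjusted p = 0.116) in KO and −0.44 (adjusted p = 0.0861) in WT and passed in neither. Summed per kilobase, the 7 thick filament genes made up 23.0% to 23.8% of the sarcomere sum in KO isoproterenol libraries and 26.7% to 27.8% in KO vehicle libraries. In WT they made up 22.9% to 25.4% with isoproterenol and 26.6% to 27.5% with vehicle.

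The sequence upstream of these genes was read from RefSeq's promoter table for GRCm38.p6, which held 39 of the 45 genes. In the 250 bases before the start, 5 of the 39 genes (12.8%) had a CArG box, the site bound by serum response factor, against 1.62% of the 27025 genes in the table. A MEF2 site was present in 8 of the 39 (20.5%), against 3.42% of all genes. The M-CAT element CATTCC, bound by TEAD factors, was found in 13 of the 39 (33.3%, against 14.4%), and the E-box CANNTG in 32 (82.1%, against 69.3%). GATA was found in 26 (66.7%, against 57.4%), and the letters TATAAA in 6 (15.4%, against 14.3%). Both strands were searched, motifs may overlap one another, and a match describes letters and not a bound site. The 4 stretches below include 3 genes that fell in both genotypes, with a CArG box or MEF2 site wholly before the first exon base of the window. The remaining stretch is that of the 1 gene that rose in both. Myoz2, which also fell in both, had a MEF2 site 33 bases before its RefSeq start that runs into an annotated exon, and its stretch is not shown. The stretches end just before the start site or the first annotated exon base met in the window. Capitals mark matches to the CArG box, the MEF2 site, the E-box or the M-CAT element. Those of Myl3 and Myom1 lie inside the annotated spans of their genes, which begin further upstream, at 110741861 and 71002633. Distances are counted from the RefSeq start, which lies beyond the end of the stretch by 32 bases for Myl3, 36 for Myom1 and 26 for Pdlim3. Mylk4 (chr13:32783965-32784214, minus strand) held a MEF2 site 103 bases before its start and 3 E-boxes. Myl3 (chr9:110763428-110763645, plus strand) held a CArG box 85 bases before its start, 1 E-box and 2 M-CAT elements. Myom1 (chr17:71019307-71019520, plus strand) held a CArG box 99 bases before its start and 3 E-boxes. Pdlim3 (chr8:45885237-45885460, plus strand) held 2 E-boxes and 1 M-CAT element, with neither a CArG box nor a MEF2 site in this window. Myl2 and Tpm1, which fell in both genotypes, had neither site as well, and Myom2 was not in the promoter table. Actc1, Ldb3 and Nebl had a CArG box and Myom3, Klhl41 and Alpk3 a MEF2 site, and none of these passed in either genotype. Ttn, Mybpc3 and Synpo2l also had a MEF2 site, and passed as lower only in KO (Ttn and Mybpc3) or only in WT (Synpo2l). A link between these sites and the changes was not tested.
Mylk4: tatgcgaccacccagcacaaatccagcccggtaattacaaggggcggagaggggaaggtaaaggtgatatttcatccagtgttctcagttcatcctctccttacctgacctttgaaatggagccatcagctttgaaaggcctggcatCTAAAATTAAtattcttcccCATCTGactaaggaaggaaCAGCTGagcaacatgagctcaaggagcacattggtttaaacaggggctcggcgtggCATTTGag
Myl3: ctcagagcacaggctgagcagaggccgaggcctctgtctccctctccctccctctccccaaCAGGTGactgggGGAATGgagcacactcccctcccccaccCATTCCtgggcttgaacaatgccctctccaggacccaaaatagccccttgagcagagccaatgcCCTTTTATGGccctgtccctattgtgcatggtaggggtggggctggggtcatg
Myom1: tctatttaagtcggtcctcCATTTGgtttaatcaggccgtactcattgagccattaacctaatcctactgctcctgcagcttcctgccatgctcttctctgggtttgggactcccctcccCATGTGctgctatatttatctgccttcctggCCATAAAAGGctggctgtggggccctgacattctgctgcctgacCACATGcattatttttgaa
Pdlim3: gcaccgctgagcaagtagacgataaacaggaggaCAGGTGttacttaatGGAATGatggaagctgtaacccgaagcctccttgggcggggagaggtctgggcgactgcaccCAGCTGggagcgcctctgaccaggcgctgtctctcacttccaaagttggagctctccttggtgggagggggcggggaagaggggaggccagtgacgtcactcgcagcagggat

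Fewer thin filament genes passed. Of 11 tested, 3 were lower in KO and 1 was lower in WT, and none was higher in either. Tropomyosin, which lies along actin and blocks or frees the myosin binding sites, is encoded in the heart mainly by Tpm1 (ENSMUSG00000032366; GRCm38 chromosome 9, 67022590 to 67049406). It measured 3145, 3155, 3125, 3126 and 2627 CPM in KO isoproterenol libraries, against 3299, 3903, 4019.6, 3839 and 3473 CPM in KO vehicle libraries. The WT levels were 3184, 3303, 3444, 3272 and 3435 CPM in WT isoproterenol libraries, against 3964, 3345, 4036, 3841 and 4215 CPM in WT vehicle libraries. The KO groups were separate, whereas in WT 1 vehicle library, replicate 2, fell among the treated ones. Tpm1 fell with a log2 fold change of −0.29 (adjusted p = 0.00694, SE 0.0686) in KO and −0.22 (adjusted p = 0.0398, SE 0.0686) in WT. The WT call was lost in 9 of 30 other settings, among them the omission of any 1 WT library other than isoproterenol replicate 5 and vehicle replicate 2 (highest adjusted p = 0.105), and without the pair of outlying libraries the WT value was −0.27 (adjusted p = 6.17e-04).

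Troponin, the calcium switch of the thin filament, gave 1 call among its adult subunits. Tnnc1, which binds calcium, measured 566, 514, 516, 555 and 445 CPM in KO isoproterenol libraries, against 597, 718, 724, 682 and 583 CPM in KO vehicle libraries. The groups were separate and the gene fell, with a log2 fold change of −0.35 (adjusted p = 0.015, SE 0.0911). Its call was lost without KO isoproterenol replicate 5 alone (adjusted p = 0.0530) and kept without the pair of outlying libraries (−0.29, adjusted p = 0.0147). In WT the libraries overlapped, with 495, 583, 603, 602 and 697 CPM in WT isoproterenol libraries, against 685, 525, 685, 641 and 743 CPM in WT vehicle libraries, and the log2 fold change was −0.14 (adjusted p = 0.389). Tnnt2, the subunit that ties troponin to tropomyosin, measured 1859, 1822, 1994, 1810.2 and 1399 CPM in KO isoproterenol libraries, against 1797, 2201, 2064, 1924 and 1861 CPM in KO vehicle libraries. These groups overlapped, with a log2 fold change of −0.15 (adjusted p = 0.267). In WT Tnnt2 measured 1837, 1863, 1895, 1843 and 1874 CPM in WT isoproterenol libraries, against 1982, 2575, 2159.7, 2021 and 2055 CPM in WT vehicle libraries. All treated WT libraries were below all vehicle ones, yet the gene did not pass (−0.21 (adjusted p = 0.0923, SE 0.0794)), and WT vehicle replicate 2 held the highest value. Tnni3 had log2 fold changes of −0.17 in KO and −0.09 in WT and passed in neither. It shares its locus with Dnaaf3 on the same strand. Actc1 had values of −0.12 (adjusted p = 0.408) in KO and 0.01 (adjusted p = 0.955) in WT, and its reads resemble those of the skeletal actin gene Acta1.

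Among proteins that set the length of the thin filament, 1 gene passed. Lmod3, a leiomodin that promotes actin assembly at the pointed end, measured 21.9, 19.9, 23.1, 22.4 and 22.6 CPM in KO isoproterenol libraries, against 25.0, 25.2, 28.0, 26.7 and 34.1 CPM in KO vehicle libraries. The KO groups did not overlap and the gene fell, with a log2 fold change of −0.34 (adjusted p = 0.00969, SE 0.0856), though not without KO vehicle replicate 5 (adjusted p = 0.0503). In WT the values were 25.9, 23.5, 25.5, 29.3 and 24.2 CPM in WT isoproterenol libraries, against 26.5, 32.2, 24.9, 24.0 and 26.4 CPM in WT vehicle libraries, which overlapped (−0.05 (adjusted p = 0.767)). Its cardiac relative Lmod2 averaged 318 ± 83.7 CPM in KO isoproterenol libraries and 271 ± 16.8 CPM in KO vehicle libraries and did not pass (0.23 (adjusted p = 0.427)). KO isoproterenol replicate 5 held the lowest Lmod2 value of all libraries, and without the pair of outlying libraries the gene passed as higher in KO (0.38, adjusted p = 0.0141). The pointed-end cap Tmod1, the barbed-end cap subunit Capzb, the severing factor Cfl2 and the formin Fhod3 had log2 fold changes between −0.14 and 0.03 over both genotypes, and none passed.

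The M-band held the clearest single change. Myom2 (ENSMUSG00000031461; GRCm38 chromosome 8, 15057653 to 15133541), the myomesin that cross-links thick filaments in fast and adult cardiac muscle, measured 461, 459, 541, 418 and 347 CPM in KO isoproterenol libraries, against 830.0, 803, 801, 812 and 678 CPM in KO vehicle libraries. In WT it measured 454, 464, 452, 497 and 421 CPM in WT isoproterenol libraries, against 899, 852, 908, 824 and 838 CPM in WT vehicle libraries. Treated and vehicle libraries were far apart in both genotypes. Myom2 fell to 0.567 of the vehicle level in KO, a log2 fold change of −0.82 (adjusted p = 6.42e-08, SE 0.0807), and to 0.530 of it in WT, a log2 fold change of −0.92 (adjusted p = 6.30e-09, SE 0.0808). No other of the 44 genes had a smaller adjusted p in either genotype.

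Myom1 (ENSMUSG00000024049; GRCm38 chromosome 17, 71002633 to 71126856), the myomesin found in all striated muscle, fell less. It measured 1073, 1019, 1093, 978 and 776 CPM in KO isoproterenol libraries, against 1218, 1300.2, 1353, 1209.9 and 1179 CPM in KO vehicle libraries. The WT levels were 978, 968, 1109, 1023 and 1056 CPM in WT isoproterenol libraries, against 1249, 1332, 1273, 1211 and 1270.3 CPM in WT vehicle libraries. Treated and vehicle libraries were separate in both genotypes, with log2 fold changes of −0.34 (adjusted p = 0.00222, SE 0.0713) in KO and −0.30 (adjusted p = 0.0064, SE 0.0713) in WT. The level of Myom2 per kilobase was 0.505 to 0.585 of that of Myom1 in KO isoproterenol libraries and 0.680 to 0.805 of it in KO vehicle libraries. It was 0.471 to 0.574 of it in WT isoproterenol libraries and 0.755 to 0.850 of it in WT vehicle libraries. Obsl1, an obscurin relative that ties titin to the myomesins, measured 46.0, 52.5, 43.97, 40.2 and 42.1 CPM in KO isoproterenol libraries, against 57.01, 49.8, 40.4, 47.5 and 56.8 CPM in KO vehicle libraries. Those groups overlapped, with a log2 fold change of −0.17 (adjusted p = 0.365). In WT the values were 40.7, 51.4, 38.3, 37.1 and 40.2 CPM in WT isoproterenol libraries, against 44.5, 55.2, 53.9, 64.9 and 55.6 CPM in WT vehicle libraries. WT isoproterenol replicate 2 was high among the treated, the groups overlapped, and the gene fell with a log2 fold change of −0.40 (adjusted p = 0.0179, SE 0.105). The WT call was lost without the pair of outlying libraries (−0.40, adjusted p = 0.0516). Myom3, a myomesin of skeletal muscle, was barely present. It measured 2.29, 1.02, 1.58, 1.42 and 1.22 CPM in KO isoproterenol libraries, against 2.00, 1.85, 1.85, 1.72 and 1.03 CPM in KO vehicle libraries, and in WT 1.79, 2.01, 1.90, 1.80 and 1.05 CPM in WT isoproterenol libraries, against 3.01, 1.54, 1.51, 2.11 and 1.35 CPM in WT vehicle libraries. Its groups overlapped in both genotypes, and the log2 fold changes were −0.13 in KO and −0.12 in WT.

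At the Z-disc genes went both ways. Of 15 genes, 1 was lower and 2 were higher in KO, and 5 were lower and 1 higher in WT. Myoz2 (ENSMUSG00000028116; GRCm38 chromosome 3, 123006206 to 123035015) encodes calsarcin, which binds alpha-actinin and restrains the phosphatase calcineurin. It measured 468, 414, 449, 405 and 301 CPM in KO isoproterenol libraries, against 587, 637, 650.1, 609.7 and 583 CPM in KO vehicle libraries. In WT it measured 423, 429.9, 466, 504 and 461 CPM in WT isoproterenol libraries, against 658, 539.6, 634, 608 and 684 CPM in WT vehicle libraries. The groups were separate in both genotypes and the gene fell, with log2 fold changes of −0.59 (adjusted p = 3.63e-05, SE 0.0852) in KO and −0.45 (adjusted p = 8.31e-04, SE 0.0851) in WT. Pdlim3 (ENSMUSG00000031636; GRCm38 chromosome 8, 45885461 to 45919548), an alpha-actinin-associated LIM protein, went the other way. It measured 30.4, 39.9, 44.7, 38.8 and 51.6 CPM in KO isoproterenol libraries, against 25.3, 23.1, 28.1, 25.7 and 25.2 CPM in KO vehicle libraries. The WT levels were 26.6, 31.0, 37.6, 37.6 and 35.0 CPM in WT isoproterenol libraries, against 22.5, 23.3, 27.8, 20.2 and 20.9 CPM in WT vehicle libraries. The KO groups were separate, and in WT 1 vehicle library overlapped the treated ones. Pdlim3 rose with log2 fold changes of 0.69 (adjusted p = 5.31e-04, SE 0.117) in KO and 0.55 (adjusted p = 0.00491, SE 0.119) in WT. KO isoproterenol replicate 5 held its highest value, at 51.6 CPM, and without the pair of outlying libraries the KO value was 0.60. Of 11 smooth muscle and pericyte markers, 3 passed as higher in each genotype, as did 4.75% of all genes in KO and 4.64% in WT. These 11 markers summed to 1107 to 2072 CPM in KO isoproterenol libraries and 954 to 1079.7 CPM in KO vehicle libraries. The 2072 CPM was that of KO isoproterenol replicate 5, and the other libraries of that group held 1107 to 1147 CPM. In WT the markers summed to 1091 to 1160.2 CPM with isoproterenol and 911 to 1019 CPM with vehicle, and their part in the Pdlim3 values was not tested.

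Actn2 (ENSMUSG00000052374; GRCm38 chromosome 13, 12269426 to 12340760), alpha-actinin, the cross-linker that holds thin filaments in the Z-disc, measured 761, 769, 763, 719 and 582 CPM in KO isoproterenol libraries, against 785, 756, 670.3, 663 and 697 CPM in KO vehicle libraries. Those groups overlapped broadly, with a log2 fold change of 0.01 (adjusted p = 0.967, SE 0.0767). In WT Actn2 measured 654, 719, 659.9, 630.4 and 708 CPM in WT isoproterenol libraries, against 740.4, 963, 815, 903 and 799 CPM in WT vehicle libraries. The treated WT libraries lay below all vehicle ones, and the gene fell with a log2 fold change of −0.32 (adjusted p = 0.00683, SE 0.0768). Flnc (ENSMUSG00000068699; GRCm38 chromosome 6, 29433256 to 29461883), the filamin that links the Z-disc to the membrane, measured 439.7, 673, 618, 519 and 358 CPM in KO isoproterenol libraries, against 409.9, 430.2, 266, 325 and 409 CPM in KO vehicle libraries. Treated KO libraries ran higher but overlapped the vehicle ones, and the gene rose, with a log2 fold change of 0.50 (adjusted p = 0.0381, SE 0.146). In WT Flnc measured 354, 409, 335, 370.0 and 345 CPM in WT isoproterenol libraries, against 332, 346, 339.9, 368 and 347 CPM in WT vehicle libraries, with a log2 fold change of 0.07 (adjusted p = 0.84). Its call in KO was lost when any 1 of KO isoproterenol replicates 2, 3 and 4 or of KO vehicle replicates 3 and 4 was left out, and without the pair of outlying libraries the log2 fold change in KO was 0.62 (adjusted p = 0.0112).

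The actin anchors myopalladin (Mypn) and palladin (Palld), which bind alpha-actinin, and Synpo2l, a further alpha-actinin partner of the Z-disc, did not pass in KO but passed as lower in WT. In KO the log2 fold changes were 0.01 (adjusted p = 0.978) for Mypn, 0.03 (adjusted p = 0.939) for Palld and −0.22 (adjusted p = 0.579) for Synpo2l. In WT Mypn averaged 94.2 ± 10.6 CPM in WT isoproterenol libraries and 120.2 ± 17.0 CPM in WT vehicle libraries (SD, n = 5 each), a log2 fold change of −0.35 (adjusted p = 0.0425). Palld averaged 68.2 ± 5.90 CPM in WT isoproterenol libraries and 99.6 ± 25.9 CPM in WT vehicle libraries, a log2 fold change of −0.54 (adjusted p = 0.0488). Synpo2l averaged 55.4 ± 9.80 CPM in WT isoproterenol libraries and 90.7 ± 12.2 CPM in WT vehicle libraries, and its WT groups did not overlap, with a log2 fold change of −0.71 (adjusted p = 0.0397). Of 30 other settings, the WT call was lost in 19 for Palld, 11 for Mypn and 8 for Synpo2l. Without the pair of outlying libraries, Mypn (−0.31, adjusted p = 0.120) and Palld (−0.41, adjusted p = 0.127) no longer passed in WT, while Synpo2l did (−0.68, adjusted p = 0.0448). Nexn, nexilin, an actin-binding protein of the Z-disc, had a log2 fold change of −0.20 (adjusted p = 0.549) in KO. In WT it averaged 63.4 ± 4.94 CPM in WT isoproterenol libraries and 91.4 ± 35.3 CPM in WT vehicle libraries and did not pass (−0.52 (adjusted p = 0.0693)). WT vehicle replicate 2, at 153.7 CPM, held far more Nexn than the other vehicle libraries, and without the pair of outlying libraries Nexn passed as lower in WT, at −0.26 (adjusted p = 0.0391). That Nexn value was itself among those by which the pair was chosen.

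The other 7 Z-disc genes passed in neither genotype. The titin cap gene Tcap varied most among them, at 299.8 to 690.2 CPM in WT isoproterenol libraries and 304 to 434 CPM in WT vehicle libraries, with log2 fold changes of 0.35 (adjusted p = 0.262) in KO and 0.41 (adjusted p = 0.178) in WT. The stretch-sensor LIM protein gene Csrp3 had values of −0.06 in KO and 0.14 in WT. Ldb3, the cypher protein gene, had a value of −0.15 in KO, and in WT its groups did not overlap but it did not pass (−0.18 (adjusted p = 0.0997)), whereas it did without the pair of outlying libraries (−0.19, adjusted p = 0.0225). Des, the intermediate filament desmin that ties neighbouring Z-discs together, had values of −0.15 in KO and −0.11 in WT. The nebulin relative Nebl had −0.11 in KO and −0.10 in WT, the small muscle protein Smpx had −0.11 in KO and 0.00 in WT, and the LIM protein Pdlim5 had −0.03 in KO and 0.01 in WT.

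Among the 7 genes for assembly and signalling, 2 were lower in KO and none passed in WT. Unc45b (ENSMUSG00000018845; GRCm38 chromosome 11, 82910550 to 82943403), the chaperone that folds the myosin motor, measured 46.7, 51.1, 49.9, 51.8 and 41.5 CPM in KO isoproterenol libraries, against 59.5, 61.5, 66.5, 67.5 and 60.7 CPM in KO vehicle libraries. The groups did not overlap, and the gene fell with a log2 fold change of −0.39 (adjusted p = 0.00147, SE 0.0780). In WT the values were 49.4, 57.2, 55.6, 64.1 and 68.3 CPM in WT isoproterenol libraries, against 60.5, 63.6, 73.9, 70.0 and 71.0 CPM in WT vehicle libraries, with a log2 fold change of −0.20 (adjusted p = 0.102, SE 0.0776), and without the pair of outlying libraries it passed in WT as well (−0.23, adjusted p = 0.0449). Smyd2, a lysine methyltransferase that associates with titin and the chaperone Hsp90, measured 23.4, 22.7, 22.8, 22.3 and 22.9 CPM in KO isoproterenol libraries, against 24.0, 27.3, 26.6, 30.2 and 25.4 CPM in KO vehicle libraries. The treated KO libraries were nearly equal and all below the vehicle ones, with a log2 fold change of −0.22 (adjusted p = 0.0417, SE 0.0706). In WT Smyd2 measured 25.5, 28.9, 25.5, 27.6 and 29.1 CPM in WT isoproterenol libraries, against 29.6, 24.9, 30.6, 29.4 and 32.5 CPM in WT vehicle libraries, with a log2 fold change of −0.11 (adjusted p = 0.367). The Smyd2 call in KO was lost in 10 of the 30 other settings.

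The remaining 5 assembly and signalling genes did not pass in either genotype. Alpk2, an alpha-kinase of the heart, measured 186, 181, 207, 188 and 156 CPM in KO isoproterenol libraries, against 179, 174, 168, 160.4 and 171 CPM in KO vehicle libraries, and in WT 184, 214, 210.2, 206 and 199 CPM in WT isoproterenol libraries, against 194, 194, 174, 177 and 186 CPM in WT vehicle libraries. Its log2 fold changes were 0.11 in KO and 0.13 in WT. Ankrd23, a stress-responsive ankyrin repeat protein that binds titin in the I-band, measured 0.948, 2.03, 1.96, 2.16 and 1.22 CPM in KO isoproterenol libraries, against 2.83, 1.96, 1.34, 1.90 and 2.47 CPM in KO vehicle libraries, and in WT 1.39, 1.67, 1.85, 1.50 and 1.68 CPM in WT isoproterenol libraries, against 1.79, 1.12, 1.66, 1.65 and 2.07 CPM in WT vehicle libraries. These low levels scattered widely, and the log2 fold changes were −0.38 in KO and −0.06 in WT. Smyd1, a muscle methyltransferase that works with Unc45b, the pseudokinase gene Alpk3 and the kelch protein gene Klhl41 had log2 fold changes between −0.12 and 0.13 over both genotypes.

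**Figure D3:**
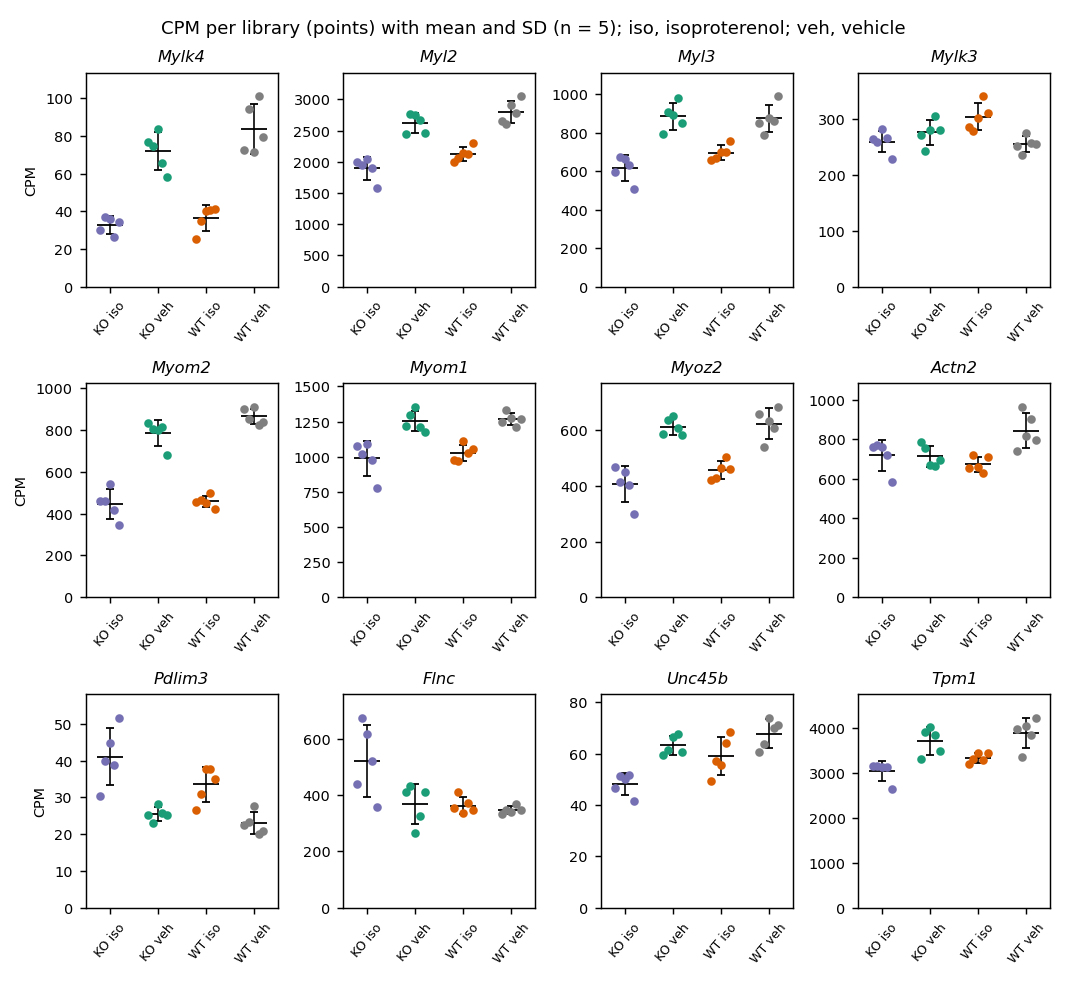
CPM of 12 sarcomere genes in each library (points; mean with SD, n = 5 per group), in panels that start at 0, with isoproterenol left of vehicle for KO and then for WT. Mylk4, Myl2, Myl3, Myom2, Myom1 and Myoz2 separate isoproterenol from vehicle in both genotypes, whereas Tpm1, Pdlim3 and Unc45b do so in KO and Mylk3 and Actn2 in WT.

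Whether the loss of OGFOD1 altered this response was asked by the difference between the 2 responses. No gene of the 44 passed, and neither did any of the 14878 genes (0% called), while 6 of the 44 and 7.68% of all genes had an unadjusted p under 0.05 in edgeR. DESeq2 likewise called none of the 44, and of all genes it called 0.0134% as higher and 0.0202% as lower. The 6 were Actn2 (KO response minus WT response 0.33 (adjusted p = 0.518)), Mypn (0.36 (adjusted p = 0.592)), Palld (0.58 (adjusted p = 0.584)), Flnc (0.44 (adjusted p = 0.646)), Mylk3 (−0.34 (adjusted p = 0.518)) and Lmod3 (−0.29 (adjusted p = 0.581)). Without the pair of outlying libraries none passed either, and 8 had an unadjusted p under 0.05, as did again 7.68% of all genes. Flnc, Palld and Mypn also departed from their group means together from library to library, as given further on. The estimate plus or minus 2 SE lay within 0.5 of 0 on the log2 scale for 31 of the 44 genes, and the other 13 include these 6.

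Set directly against each other, KO and WT hearts gave no call among the sarcomere genes. With isoproterenol none of the 44 genes passed between KO and WT, where 0.181% of all genes passed, and 14 genes had an unadjusted p under 0.05 (2 higher, 12 lower), against 13.0% of all genes. Without the pair of outlying libraries none passed, and 11 had an unadjusted p under 0.05 (5 higher, 6 lower), against 12.0% of all genes. Under vehicle no gene passed, where 0.128% of all genes did, and 4 had an unadjusted p under 0.05, all lower, against 8.31% of all genes. Without the pair 1 gene passed there, Fhod3, and 8 had an unadjusted p under 0.05, all lower, against 8.54% of all genes. Markers of other cells moved with these values. With isoproterenol the 16 cardiomyocyte genes outside the sarcomere had a median log2 fold change of −0.15 between KO and WT, with 16 of 16 below 0 and 5 at an unadjusted p under 0.05. At that threshold 6 of 10 fibroblast markers and 6 of 8 erythroid and platelet markers tested were higher in KO. The fibroblast markers summed to 1519 to 3338 CPM in KO isoproterenol libraries and 1435 to 1658 CPM in WT isoproterenol libraries. KO isoproterenol replicate 5 held the 3338 CPM, against at most 1847 CPM in the rest of its group. Erythroid and platelet markers summed to 650 CPM in that library, 313 to 412 CPM in the rest of its group and 228 to 351 CPM in WT isoproterenol libraries. The marker counts were not recomputed without the pair. Under vehicle 7 of 9 atrial markers were higher at an unadjusted p under 0.05, with sums of 959 to 1200.4 CPM in KO vehicle libraries and 708 to 939.7 CPM in WT vehicle libraries, which did not overlap. At the same threshold 5 of 10 fibroblast markers were higher and 4 of the 16 cardiomyocyte genes lower under vehicle. None of these markers passed the adjusted test, and their part in the sarcomere values was not tested. These comparisons share libraries with those above. The estimate plus or minus 2 SE stayed within 0.5 of 0 for 39 of 44 genes with isoproterenol and for 38 of 44 under vehicle, and the exceptions were Flnc, Synpo2l, Tcap, Pdlim3 and Myom3 with isoproterenol and Lmod2, Myom3, Tcap, Nexn, Palld and Ankrd23 under vehicle.

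The gene nearest to a call under vehicle was Fhod3, the formin that assembles cardiac actin. It measured 255, 289, 279, 263 and 249 CPM in KO vehicle libraries, against 318, 345, 319.7, 324 and 325 CPM in WT vehicle libraries. All KO libraries were below all WT libraries, as was the case for 1.03% of all genes, and the log2 fold change was −0.29 (adjusted p = 0.117, SE 0.0707). Fhod3 passed in DESeq2 (0.262% of all genes lower), in limma-voom with quality weights, without the filter on low counts, in a fit of the compared groups alone, without KO isoproterenol replicate 5, and without the pair of outlying libraries (−0.27, adjusted p = 0.0134). With isoproterenol its levels were 214 to 305 CPM in KO isoproterenol libraries and 293 to 327 CPM in WT isoproterenol libraries, which overlapped, and the log2 fold change was −0.18 (adjusted p = 0.278). Actn2, at 663 to 785 CPM in KO vehicle libraries and 740.4 to 963 CPM in WT vehicle libraries, had a log2 fold change of −0.24 (adjusted p = 0.267) under vehicle.

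With isoproterenol the smallest p belonged to genes of assembly. Unc45b measured 46.7, 51.1, 49.9, 51.8 and 41.5 CPM in KO isoproterenol libraries, against 49.4, 57.2, 55.6, 64.1 and 68.3 CPM in WT isoproterenol libraries. The groups overlapped only slightly, and the log2 fold change was −0.29 (adjusted p = 0.114, SE 0.0782). Smyd2, whose KO libraries all lay below the WT ones at 22.3 to 23.4 CPM in KO isoproterenol libraries and 25.5 to 29.1 CPM in WT isoproterenol libraries, had −0.26 (adjusted p = 0.12, SE 0.0709). Tpm1 and Lmod3 did not overlap either (1.13% of all genes were lower without overlap), with −0.13 (adjusted p = 0.414) and −0.23 (adjusted p = 0.261). Flnc, at 358 to 673 CPM in KO isoproterenol libraries and 335 to 409 CPM in WT isoproterenol libraries, had 0.52 (adjusted p = 0.153, SE 0.146). Mylk3 had −0.23 (adjusted p = 0.153, SE 0.0678). DESeq2 passed Flnc as higher and Smyd2 and Unc45b as lower in this comparison, where it called 0.477% of all genes as higher and 0.383% as lower.

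Genes of the same structures that are not among the 45 were read from lists of related genes. Of 11 further thick filament genes, 8 were tested, and 5 were lower in KO and 3 in WT, with none higher. Over all genes tested, 4.29% were lower in KO and 4.12% in WT. The slow myosin gene Myh7 and the related Myh7b were lower in both genotypes, with Myh7b at −0.53 in KO and −0.76 in WT. The atrial genes Myl7 (−0.61), Myl4 (−0.37) and Mybphl (−0.52) passed as lower in KO and not in WT, and the fast myosin gene Myh6 in WT and not in KO. The 9 atrial markers, which include these 3, summed to 805 to 1099 CPM in KO isoproterenol libraries and 959 to 1200 CPM in KO vehicle libraries, and 5 of the 9 passed as lower. In WT they summed to 875 to 1009 CPM with isoproterenol and 708 to 940 CPM with vehicle, and none passed, and the part of atrial tissue in these values was not tested.

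Of 22 further thin filament genes tested, 1 was higher and 2 were lower in KO, and 3 were higher and 3 lower in WT. That was 13.6% of the 22 in KO and 27.3% in WT, against 9.03% and 8.76% of all genes called in either direction. Tmod4, a tropomodulin of skeletal muscle, was lower in both (−0.70 in KO and −0.68 in WT), as was Acta1, and Tpm3, a tropomyosin found mostly outside adult cardiac sarcomeres, was higher in WT (0.32). Of 46 further genes of the Z-disc, I-band and M-band, 3 were higher and 6 lower in each genotype. That was 19.6% of the 46 in each genotype, against the same shares of all genes. The 3 higher ones were the same in both. They were Fhl1, a LIM protein that binds titin in the I-band (0.93 in KO and 0.78 in WT), Klhl40, a kelch protein that stabilises thin filament proteins (0.63 in KO and 0.70 in WT), and Sync, a partner of desmin (0.28 in KO and 0.33 in WT). Hspb8, a chaperone of the filamin turnover machinery, was lower in both (−0.54 in KO and −0.31 in WT).

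Within groups the median variation of the sarcomere genes was below that over all genes, though the 2 sets were not matched for level. The median coefficient of variation over the genes tested was 11.2% in KO isoproterenol libraries, 7.65% in KO vehicle libraries, 7.93% in WT isoproterenol libraries and 8.36% in WT vehicle libraries, against 11.8% to 13.6% over all genes tested. Single genes varied more, such as Nexn (38.6% in WT vehicle libraries), Synpo2l (26.8% in KO vehicle libraries) and Lmod2 (26.3% in KO isoproterenol libraries). A few genes departed from their group mean together. Flnc, Synpo2l, Palld, Mypn and Obsl1, picked out after their values had been seen, all stood above the group mean in KO isoproterenol replicate 2, KO vehicle replicates 1 and 5, WT isoproterenol replicate 2 and WT vehicle replicate 4. All 5 stood below it in KO isoproterenol replicate 5, KO vehicle replicates 3 and 4, WT isoproterenol replicate 1 and WT vehicle replicates 1 and 3. In the other 9 libraries they were mixed. In KO isoproterenol replicate 5 and WT isoproterenol replicate 1, 40 of the 44 genes tested lay below the group mean. The joint fall there was thus not particular to these 5 genes. How often other sets of 5 genes move together was not tested. The widest swing was that of Synpo2l, at 0.50 from the group mean in KO isoproterenol replicate 2 and −0.60 in KO isoproterenol replicate 5 on the log2 scale.

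**Figure D4:**
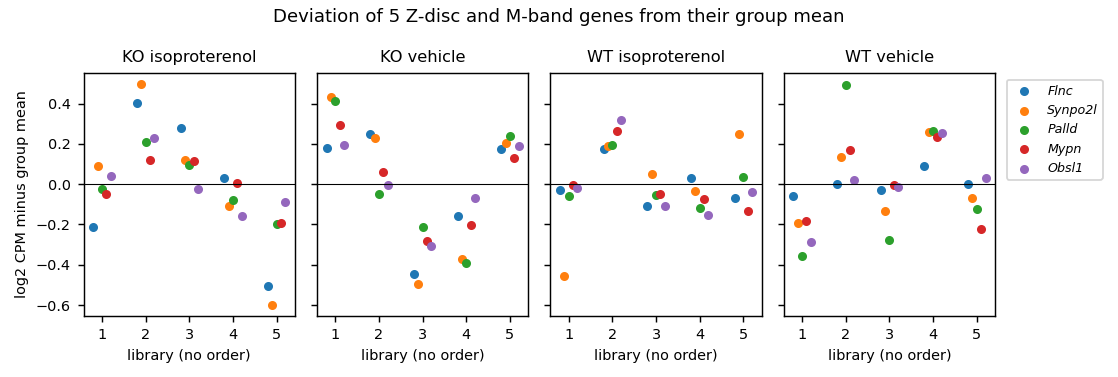
Deviation of Flnc, Synpo2l, Palld, Mypn and Obsl1 from the mean of their group (log2 CPM) in each of the 5 libraries of each group, where library numbers have no order. The 5 genes, picked after their values had been seen, lie on the same side of 0 in 11 of the 20 libraries.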

How the data were processed

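Total RNA of whole powdered hearts was sequenced from stranded libraries, per the labels' protocols. The authors deposited raw counts per gene, 1 column for each of the 20 libraries. Reads were aligned with HISAT2 2.1.0 to GRCm38 and counted with featureCounts 1.6.3, per the submitters' processing notes. Which annotation release and strand setting were used, and how reads with several matches were treated, is not given in the sources used here. Of the 45 genes, 26 overlap the span of another annotated gene (9 on the same strand, 21 on the other), and reads of overlapping genes, or of near-identical ones such as Actc1 and Acta1, cannot be told apart with certainty. Gene names and coordinates and exon lengths were taken from GENCODE vM21 (GRCm38), which held 55154 of the 55335 gene IDs.

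Counts were tested with edgeR 4.0.16 (quasi-likelihood, TMM scaling, filterByExpr, robust) in R 4.3.3, in 1 fit of all 20 libraries with a mean per group. P-values were adjusted by Benjamini-Hochberg over the 14878 genes that passed the filter, and a gene was called at an adjusted p under 0.05. The residual degrees of freedom were 16, and the common biological coefficient of variation was 0.119. CPM are counts divided by the TMM-scaled library size, mitochondrial counts included, and log2 fold changes come from the fit. Total counts per library differed by almost 3-fold, and low genes such as Myom3 and Ankrd23 are limited by counting error.

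The members, the lists of related genes and the cell markers were chosen with earlier results of these data known. In each of the 5 classes of sarcomere genes the 4 with the smallest adjusted p in any comparison are given by library, and the others by means, ranges and counts. Named genes of the other lists are among those with the smallest p. Alternatives were DESeq2 1.42.0, limma-voom (limma 3.58.1) with and without quality weights, RLE and upper quartile scaling, other filters on low counts, mitochondrial genes left out, fits of the compared groups alone, and the omission of each library or of both outlying libraries. Replicate numbers follow accession order and do not pair libraries.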

Additional observations from a re-analysis of the deposited data

Results flagged for a closer look

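Among the 44 genes tested, 176 sets of 5 libraries were searched for a library whose gap to its nearest neighbour took up most of the range of its group. For normally distributed values chance flags about 1 in 20 such sets, or 8.8 here, and 16 were found. The sets share the same libraries and are not independent, so the 16 cannot be weighed against the 8.8. KO isoproterenol replicate 5 accounted for 6 of the 16 flags, as the lowest library of its group each time. It held 1585 CPM of Tnni3 (next lowest 2149 CPM), 2627 CPM of Tpm1 (next lowest 3125 CPM), 271 CPM of Tcap (next lowest 397 CPM), 425 CPM of Ldb3 (next lowest 521 CPM), 582 CPM of Actn2 (next lowest 719 CPM) and 645 CPM of Des (next lowest 829 CPM). WT vehicle replicate 2 accounted for 3, as the highest library of its group. It held 92.0 CPM of Capzb (next highest 71.5 CPM), 345 CPM of Fhod3 (next highest 325 CPM) and 154 CPM of Nexn (next highest 81.1 CPM). The call of Tpm1 in KO and that of Actn2 in WT were kept without both of these libraries.

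The other 7 were spread over 6 libraries. Nexn was high in KO isoproterenol replicate 3 (82.9 CPM, next highest 66.2 CPM). Among KO vehicle libraries, Capzb was low in replicate 1 (63.3 CPM, next lowest 72.1 CPM), Ttn was high in replicate 3 (40793 CPM, next highest 39013 CPM) and Myom2 was low in replicate 5 (678 CPM, next lowest 801 CPM). Among WT isoproterenol libraries, Obsl1 was high in replicate 2 (51.4 CPM, next highest 40.7 CPM), and in replicate 5 Nebl was high (274 CPM, next highest 257 CPM) and Myom3 was low (1.05 CPM, next lowest 1.79 CPM).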

How the results depend on the processing

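The calls were recomputed under 30 other settings, of which 20 left out 1 library each. Of the 29 calls of sarcomere genes with isoproterenol, 18 were kept in all 30 settings (10 of 15 in KO and 8 of 14 in WT), 11 were lost in some and none changed sign. With 1 library left out, the number of genes called higher in KO ran from 1 to 2 and lower from 11 to 14, and in WT higher from 1 to 3 and lower from 7 to 15. Between KO and WT, 0 to 1 were then lower under vehicle and 0 to 1 with isoproterenol. The number called higher with isoproterenol in KO was 1 in limma-voom, without a filter and with only the compared groups. Under vehicle, 1 gene was lower in KO than in WT in DESeq2, limma-voom with quality weights, the fit of compared groups alone and the fit without both outlying libraries, a choice made after seeing the data, and 2 were lower without a filter (Fhod3 and Actn2). With isoproterenol, DESeq2 gave 1 higher and 2 lower, and the absence of a filter 1 higher (Pdlim3) and 3 lower (Mybpc3, Mylk3 and Unc45b). The cause of these changes was not tested. The median of all genes moved by at most 0.02 between scalings. No paired analysis was possible because the labels carry no replicate numbers, and those used here follow accession order.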
